A study of Mus musculus with 7 samples.

Results

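The cytoplasmic ribosomal protein genes were followed in LSK cells of wild-type and PROSER1 KO bone marrow chimeras. They were taken as every gene whose symbol begins with Rpl or Rps followed by a number, with the usual suffixes for named variants, together with Rplp0, Rplp1, Rplp2 and Rpsa, and no symbol marked as a numbered pseudogene was admitted. This gave 89 of the 48440 genes in the table. Of these, 77 encode the proteins of the large subunit (46) or the small subunit (31), and 12 are named paralogs or retrotransposed copies. The annotation used here (GENCODE M21, mouse genome GRCm38) lists 84 members as protein coding and 5 (Rpl6l, Rps12l1, Rps3a2, Rps3a3 and Rps4l) as processed pseudogenes, so the label fitted 84 members as annotated. The rule reads symbols and not values, though members were chosen with earlier results of these data known.

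PROSER1 is a partner of the TET enzymes, which oxidize methylated cytosine, and the study asked how its loss changes hematopoietic stem and progenitor cells. RNA was sequenced from LSK cells, the lineage-negative fraction carrying Sca1 and cKit that holds stem and multipotent progenitor cells. C57BL/6 recipients were lethally irradiated with 9.5 Gy and given BM of either genotype, and LSK cells were sorted from them at day 77. Both groups shared irradiation and transplant: 4 libraries came from wild-type and 3 from PROSER1 KO donor BM, and the KO was constitutive, so every donor cell lineage carried it. Donor and recipient ages were not given in the sources used here, and whether cells that survived in the hosts entered the sort cannot be told apart. The labels call the libraries biological replicates without naming the animals behind each, so the p-values measure the spread between these libraries only.

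Each eukaryotic ribosome carries 1 copy of almost every ribosomal protein, the exception being the acidic proteins Rplp1 and Rplp2, which form the P-stalk together with Rplp0. The mRNAs of these proteins begin with a C followed by a run of pyrimidines, the 5′ terminal oligopyrimidine (TOP) motif, through which mTORC1 and LARP1 control their translation together. In humans, loss of 1 copy of certain ribosomal protein genes, RPS19 and RPS26 among them, causes Diamond-Blackfan anemia, a failure of red cell production in the BM.

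The table held 33143619 to 45140743 read pairs on genes per library, of which 2231830 to 3393472 fell on the members. The targeted gene was checked first. Proser1 (chr3:53463666-53481755, plus strand) had normalized counts of 2019, 2153, 2103 and 2077 in the 4 wild-type libraries, given here and below in replicate order, while the 3 PROSER1 KO libraries had 2464, 2359 and 2338. It was not lower in the KO libraries: the log2 fold change of PROSER1 KO over wild-type was 0.19 ± 0.049 (SE), with an adjusted p of 0.204 in limma. Gene-level values do not show whether the transcript still encodes the protein, so every direction below rests on the labels, and PROSER1 KO means the libraries labelled so. The 12 LSK and stem cell markers summed to 127567 to 142266 normalized counts in wild-type and 128048 to 131598 in PROSER1 KO libraries. Gene by gene, 3 had positive and 9 negative log2 fold changes, with a median of -0.043. The lowest was Mecom, at -0.25 with an adjusted p of 0.282 in limma, and 0 of the 12 were called. The 11 plasma cell markers, which do not define the LSK gate, summed to 1393170 to 3262750 and 1312150 to 1927770, and no marker of either list was at 0 in all libraries. The 7 megakaryocyte markers summed to 10475 to 12083 in wild-type and to 12464 to 15366 in PROSER1 KO libraries, without overlap; 0 of the 7 were called in limma, and their part in the results below was not tested. The groups overlapped for the summed markers of the other lists (B-lineage, T and innate lymphoid, erythroid, granulocyte and monocyte, mast cell and basophil, macrophage, plasmacytoid dendritic cell, and stromal and endothelial). Gene by gene, 6 of the 10 B-lineage markers had positive and 4 negative log2 fold changes. In limma 4 of the 10, all higher in PROSER1 KO, had an unadjusted p under 0.05, against 9.73% of all genes. All 11 plasma cell markers had negative log2 fold changes, with a median of -0.29. In limma 0 of either list were called.

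Sequence matters for these genes in 2 ways. The genome holds many retrotransposed copies of them, and a read that lies wholly within a shared stretch cannot be placed with certainty. Over the 77 subunit protein genes, a median of 52.9% of the 50-base windows of the principal transcript also occurred in the transcript of another annotated gene. The closest case for the results below is Rps26 and its copy Rps26-ps1. The copy has 449 exonic bases in the annotation, and the 351 bases of its principal transcript were aligned. Of these, 349 were identical and 2 differed, C30T and G270A, counted from the first base of the Rps26 start codon with the Rps26 base first. Both fall on the third base of a codon. The 30-base stretches around the differing bases are shown because only reads that cross them, or that reach beyond the aligned bases, tell the rows apart. Capitals mark the differing base, on GRCm38, minus strand in each case. The first pair lies at chr10:128626199-128626228 and chr8:107439518-107439547, and the second at chr10:128625234-128625263 and chr8:107439278-107439307.
Rps26, first site: agaaacaacggtcgCgccaaaaagggccgc
Rps26-ps1, first site: agaaacaacggtcgTgccaaaaagggccgc
Rps26, second site: aatcgatcccgcgaGgcccggaaggaccga
Rps26-ps1, second site: aatcgatcccgcgaAgcccggaaggaccga

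The TOP sequence is the other feature. RefSeq promoters (GRCm38.p6) were matched by symbol for 64 of the 89 members, 57 of them subunit protein genes. A C followed by at least 4 more pyrimidines, starting from -10 to +10 around the annotated start on the sense strand, was found in 31 of the 57 (54.4%), against 30.8% of 27025 promoters in all. CCGGAAG, the core bound by ETS factors, stood on either strand of the 300-base promoter in 23 of the 57 (40.4%) and in 9.12% of all. TATAAA was found in 8.77% against 14.2%, and GGGCGG in 59.6% against 35.9%. A match is a description of these letters and no evidence of a start or a bound site. Start windows of 5 members are printed to show the motif, 30 bases each with the pyrimidine run in capitals. Rps26 (chr10:128626487-128626516, minus), Rpl13a (chr7:45128726-45128755, minus) and Rpl39 (chrX:37085203-37085232, minus) are among the members with the largest differences, with runs of 8, 14 and 8 pyrimidines. Rps6 (chr4:86857348-86857377, minus) and Rpl35 (chr2:39005112-39005141, minus) are further subunit protein genes, with runs of 10 and 18. Rpl24, Rpl36al and Rpl41, also among the largest differences, had no such run and are not printed.
Rps26: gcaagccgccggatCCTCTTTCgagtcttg
Rpl13a: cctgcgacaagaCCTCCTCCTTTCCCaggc
Rpl39: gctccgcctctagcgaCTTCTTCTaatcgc
Rps6: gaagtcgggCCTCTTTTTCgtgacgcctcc
Rpl35: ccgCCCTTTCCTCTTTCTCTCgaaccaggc

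Ribosomal protein mRNAs were among the most abundant transcripts of LSK cells. Of the 77 subunit protein genes, 42 were among the 100 genes with the highest mean normalized count and 61 among the highest 200. The mean normalized count over 7 libraries ran from 67.1 for Rpl24 to 85213 for Rpl4, with a median of 32324. Per kb of principal transcript, the highest were Rplp1 of the P-stalk (91884 normalized counts per kb), Rps12 (84569) and the X-linked Rps4x (76709). The lowest tested members were Rpl3l (25.3), a paralog known from muscle, Rps12l1 (94.5), a processed pseudogene, and Rpl24 (99.1).

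The position of Rpl24, a large subunit protein, was far from that of its partners. Its principal transcript shared 81.7% of its windows with other genes, 47.0% of its exonic bases overlapped Gm28037 on the same strand, and Gm28037 was listed at 0 in all 7 libraries. Rpl13a, at 1768 normalized counts per kb, shared 57.4% of its windows and 35.4% of its exonic bases with annotated neighbors that include Gm45713, also listed at 0. How far counting rules lowered these rows was not tested, and their level is uncertain. Without Rpl24 and Rpl13a, the other 75 subunit protein genes ranged from 4940 to 91884 normalized counts per kb, and the lowest of them, Rps15a, has a principal transcript of 5130 bases in this annotation. Outside the naming rule, Fau, which encodes a ubiquitin-like protein fused to Rps30, stood at 32088 normalized counts per kb and Rack1, a protein bound to the small subunit, at 39620.

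**Figure D1:**
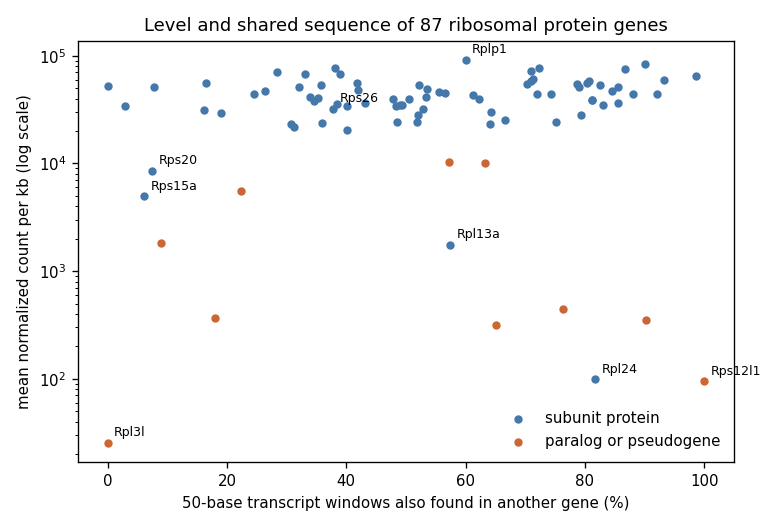
Mean normalized count per kb of principal transcript over 7 libraries (vertical axis, log scale) against the percentage of 50-base transcript windows found in another gene, for the 87 tested ribosomal protein genes. Most subunit protein genes lie in 1 band whatever their shared percentage, and Rpl13a and Rpl24 lie below it.

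The paralogs were far lower than the genes they resemble. Median levels were 402 normalized counts per kb for the 10 tested paralogs and pseudogenes and 43113 for the subunit proteins. The best represented paralogs were Rpl22l1 (10353 per kb, against 44217 for Rpl22), Rpl36al (10047 per kb, against 36335 for Rpl36a) and Rps27l (5553 per kb, against 64829 for Rps27). Rpl10l, a testis paralog of Rpl10, was listed at 0 in all 7 libraries, which allows up to 3 read pairs or 2.54 to 3.48 normalized counts in each. Rpl39l, at 0 to 8.11 normalized counts, was also below the minimum mean of 10 and was not tested.

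Across libraries the subunit protein genes rose and fell together, and this movement did not follow genotype. Each gene was set to its mean over the 7 libraries on the log2(normalized count + 1) scale. The median deviation over the 77 genes was 0.0050, -0.0065, 0.039 and -0.061 in the wild-type libraries, while the PROSER1 KO libraries had 0.034, 0.090 and -0.10. The highest and the lowest library were thus both PROSER1 KO. PROSER1 KO replicate 2 was the highest library for 59 of the 77 genes, and PROSER1 KO replicate 3 was the lowest for 63, with wild-type replicate 4 lowest for a further 10.

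Both subunits moved alike. In PROSER1 KO replicate 2 the median deviation was 0.087 for the large and 0.099 for the small subunit, and in replicate 3 it was -0.10 for each. The median over all tested genes stayed between 0.0015 and 0.0044 in every library. The DESeq2 size factors nearly fix that median by design, so it is no observation about these libraries. Eukaryotic translation factors and other genes whose mRNAs carry a TOP motif (20 genes, among them Eef1a1, Eef2 and Tpt1) had median deviations of 0.091 in PROSER1 KO replicate 2 and -0.067 in replicate 3, and of -0.068 in wild-type replicate 4. Mitochondrial ribosomal protein genes had medians of 0.096, -0.057 and -0.046 in the same 3 libraries. In PROSER1 KO replicate 1 they went the other way, at -0.054, against 0.034 for the subunit proteins and 0.039 for the TOP genes. These are descriptions over genes of the same libraries, with no test. Fewer cells of a type and less of an RNA per cell cannot be told apart in bulk libraries.

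**Figure D2:**
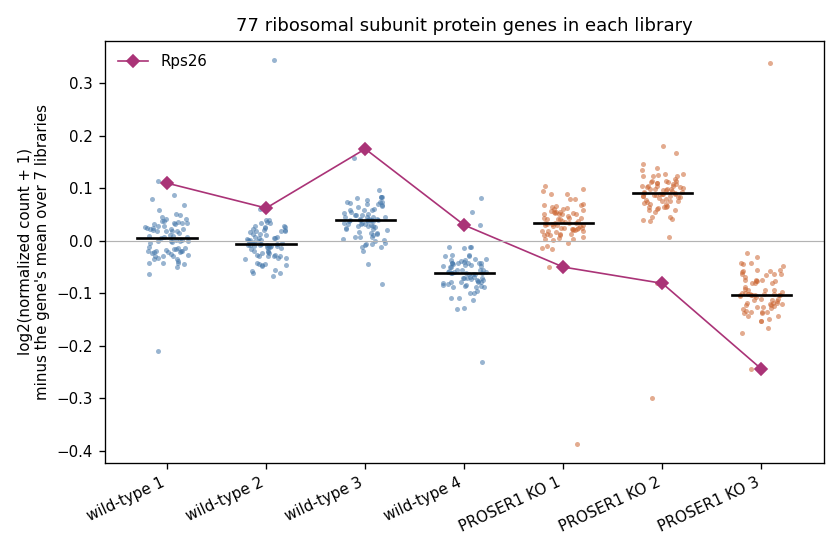
Deviation of each of the 77 subunit protein genes from its own mean over 7 libraries (points, log2 scale), with the median per library (black bars) and Rps26 (diamonds). The cloud is highest in PROSER1 KO replicate 2 and lowest in PROSER1 KO replicate 3, and Rps26 lies above the median in all 4 wild-type and below it in all 3 PROSER1 KO libraries.

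As a share of each library, the 89 genes took 6.89%, 6.96%, 7.27% and 6.35% of normalized counts in the wild-type libraries, while in the PROSER1 KO libraries they took 7.13%, 7.52% and 6.44%. The groups overlapped, with 6.87% ± 0.383 (SD, n = 4) in wild-type and 7.03% ± 0.545 (SD, n = 3) in PROSER1 KO. The difference of 0.164 percentage points was smaller than either spread. Immunoglobulin and T cell receptor genes took 8.56%, 7.10%, 5.16% and 12.04% of the wild-type libraries, while they took 6.94%, 5.81% and 8.72% of the PROSER1 KO libraries. The libraries with the lowest ribosomal protein share, wild-type replicate 4 and PROSER1 KO replicate 3, were those with the highest antigen receptor share. With the antigen receptor genes left out of the total, the ribosomal protein share was 7.48% ± 0.189 in wild-type (SD, n = 4) and 7.57% ± 0.470 in PROSER1 KO (SD, n = 3). PROSER1 KO replicate 3 was then the lowest at 7.06% and replicate 2 the highest at 7.98%. The part of plasma cell RNA in this movement beyond that was not tested.

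**Figure D3:**
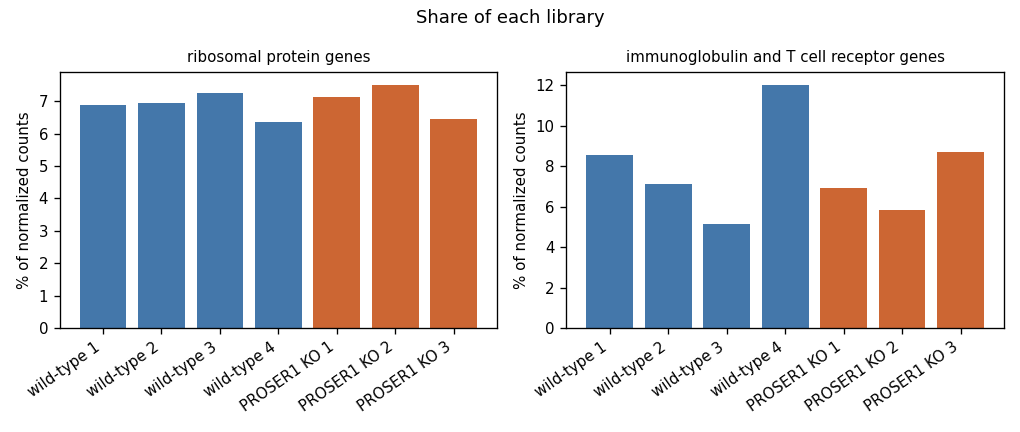
Percentage of normalized counts taken by the 89 ribosomal protein genes (left) and by immunoglobulin and T cell receptor genes (right) in each library, wild-type in blue and PROSER1 KO in orange. The ribosomal protein share lies between 6.35% and 7.52% with overlapping groups, and the antigen receptor share is highest, at 12.04%, in wild-type replicate 4.

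Against this spread, no ribosomal protein gene was called different between the genotypes in limma. In limma on log2(normalized count + 1), 0 of the 87 tested members passed an adjusted p under 0.05 with a fold change above 1.5, a call made for 0.258% of the 16251 genes tested; without the fold minimum the member count was also 0, against 0.308%. At an unadjusted p under 0.05 there were 2 members, Rps26 and Rps4l, or 2.30%, against 9.73% of all genes. edgeR called 0 members at the same thresholds, against 0.253% of all genes, and 0 without the fold minimum, against 0.301%. DESeq2 called 1, Rps4l, against 0.873%, and gave an adjusted p under 0.05 to Rps26 as well, with a fold change under 1.5 (1.65% of all genes without the fold minimum).

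The median log2 fold change of the tested members was 0.017, against 0.0015 over all genes tested, with 64 members above 0 and 23 below. Over all genes tested, 8219 were above 0 and 8032 below. Members that move together by library are not independent observations. The values of most subunit proteins were narrowly bounded: for 73 of the 77, the 95% interval of the log2 fold change lay within 0.2 of 0 on both sides. The median residual SD of the subunit proteins was 0.075, against 0.134 over all genes. The all-gene value is not matched for level, and 61 of the 77 were among the 200 genes with the highest mean. The median log2 fold change was 0.012 for the large and 0.023 for the small subunit. Wild-type and PROSER1 KO values did not overlap for 3 of the 87 members (3.45%): Rps4l and Rps3a2 were higher in every PROSER1 KO library and Rps26 was lower. Over all tested genes, 10% did not overlap, 5.17% with PROSER1 KO higher and 4.83% with it lower.

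**Figure D4:**
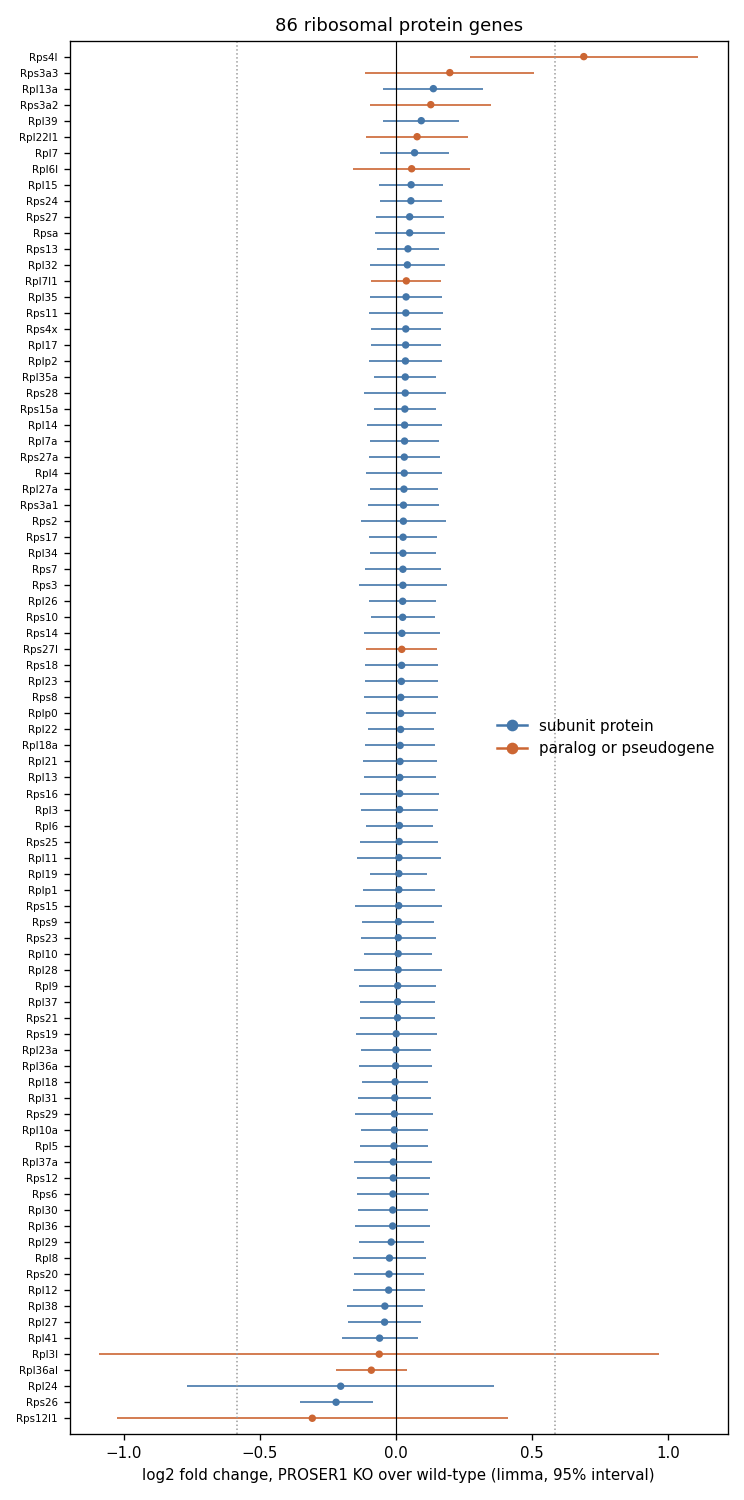
Log2 fold change of PROSER1 KO over wild-type for 86 of the 87 tested members, with the 95% interval from limma (n = 4 and 3); dotted lines mark a fold change of 1.5. The intervals of Rps26, at -0.22, and Rps4l, at 0.69, leave out 0 before adjustment, and those of Rpl24, Rpl3l and Rps12l1 are wide.

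Rps26, a small subunit protein near the mRNA exit, was the subunit protein with the lowest p. The wild-type libraries had 23532, 22769, 24619 and 22263 normalized counts of Rps26, while the PROSER1 KO libraries had 21063, 20614 and 18410. Every PROSER1 KO library was below every wild-type library. Its mean was 23296 ± 1025 in wild-type (SD, n = 4) against 20029 ± 1420 in PROSER1 KO (SD, n = 3), or 0.860 of the wild-type level. The log2 fold change was -0.22 ± 0.060 (SE), with a 95% interval from -0.35 to -0.085 and an adjusted p of 0.244 in limma, 0.244 in edgeR and 0.0176 in DESeq2. A two-sided exact permutation test over the 35 splits gave p = 0.0571, the smallest this design allows. Groups that do not overlap always give this value here, so it adds nothing to the lack of overlap.

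Rps26 was also set against the common movement of the subunit proteins. Relative to their median in the same library, the deviation of Rps26 on the log2 scale was 0.10, 0.069, 0.14 and 0.090 in wild-type libraries, while it was -0.084, -0.17 and -0.14 in PROSER1 KO libraries. With each library rescaled to the ribosomal protein genes, an alternative added after the data were seen, Rps26 gave a log2 fold change of -0.23 with an adjusted p of 0.139 in limma. Rps26 and Rps4l were again the 2 members with an unadjusted p under 0.05, against 6.98% of all genes under that scaling.

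The copy Rps26-ps1 (chr8:107439131-107439579, minus strand, a transcribed processed pseudogene) moved the other way. The wild-type libraries had 229, 265, 214 and 261 normalized counts of it, while the PROSER1 KO libraries had 1520, 1701 and 1420. All 3 PROSER1 KO libraries were far above all 4 wild-type libraries, at 1547 ± 142 (SD, n = 3) against 242 ± 24.9 (SD, n = 4), which is 6.39 times the wild-type mean. The log2 fold change was 2.67 ± 0.11 (SE), and its adjusted p of 1.17e-05 in limma was the lowest of all genes tested. Rps26-ps1 was 1.04% of the Rps26 level in wild-type and 7.72% in PROSER1 KO.

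The gain of 1305 normalized counts on Rps26-ps1 was less than the fall of the mean of Rps26, which decreased by 3267. Summed, the rows came to 23761, 23034, 24833 and 22523 in wild-type, while in PROSER1 KO libraries they came to 22583, 22315 and 19830. The groups then overlapped, since PROSER1 KO replicate 1 lay just above wild-type replicate 4. The log2 difference of the sum was -0.13, with an exact permutation p of 0.114. Rps26 shared 37.8% of its windows with Rps26-ps1, and how read pairs were divided between the rows was not tested, since the reads are not analysed here. A further row, Gm6654, shares 20.1% of the windows of Rps26 and had low counts. It stood at 2.88, 9.92, 18.4 and 2.32 normalized counts in wild-type and at 11.5, 23.7 and 21.1 in PROSER1 KO libraries. The groups overlapped, and the log2 fold change was 1.39 with an adjusted p of 0.543 in limma.

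Among all 1252 rows outside the membership that share at least 1 window with a member, 584 were tested. Rps26-ps1 was the 1 row called among them in limma, against 0.258% of all genes, and 33 (5.65%) had an unadjusted p under 0.05, against 9.73% of all genes. The median log2 fold change of the 584 rows was 0.019. For the 5 subunit protein genes with under 10% of windows shared, log2 fold changes ran from -0.025 to 0.033.

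**Figure D5:**
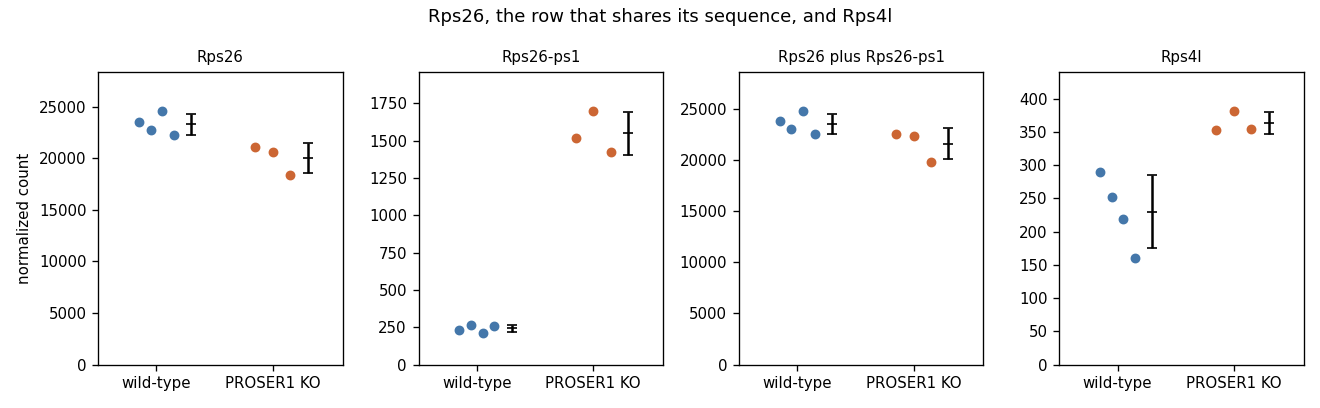
Normalized counts of Rps26, Rps26-ps1, their sum and Rps4l in each library (points), with the mean and SD beside them; each panel has its own vertical axis from 0. Rps26 is lower and Rps26-ps1 and Rps4l higher in all 3 PROSER1 KO libraries, and the sum overlaps between groups.

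Rps4l, a retrotransposed relative of the X-linked Rps4x on chr6:148354656-148355598, had the largest positive difference. The wild-type libraries had 289, 252, 220 and 160 normalized counts of Rps4l, while the PROSER1 KO libraries had 354, 382 and 355. The groups did not overlap, and wild-type values were the more spread: 230 ± 54.8 (SD, n = 4) against 364 ± 16.2 (SD, n = 3). The log2 fold change was 0.69 ± 0.19 (SE), with a 95% interval from 0.27 to 1.11. The adjusted p was 0.236 in limma, 0.262 in edgeR and 0.0226 in DESeq2. The exact permutation p was 0.0571, the value that any groups without overlap give here. Rps4x itself stood at 72536 to 76135 normalized counts in wild-type and at 72313 to 80557 in PROSER1 KO libraries, with a log2 fold change of 0.037 ± 0.057 (SE). Rps4l and Rps4x were identical at 626 of 783 aligned bases (79.9%), and none of the 50-base windows of Rps4l occurred in Rps4x. The windows that Rps4l shared (17.97%) occurred in Rps4l-ps, which stood at 0 to 5.92 normalized counts.

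The other members with larger differences were mostly rows of low counts or with shared windows above the subunit protein median of 52.9%. Sharing of over 50% was found in 43 of the 77 subunit proteins, so it does not set these members apart. Its part in the differences was not tested. Rpl39 and Rpl41 had neither trait. Their mean normalized counts were 19284 and 25945, with 16.2% and 42.0% of windows shared. The copies of Rps3a1, Rps3a3 (log2 fold change 0.20 ± 0.14, SE) and Rps3a2 (0.13 ± 0.099), shared 65.1% and 90.2% of their windows, and their adjusted p-values in limma were 0.689 and 0.716. Rps3a2 stood at 266 to 272 normalized counts in wild-type and at 284 to 306 in PROSER1 KO libraries. The subunit proteins Rpl13a (0.14 ± 0.082) and the X-linked Rpl39 (0.094 ± 0.062), which lies in the peptide exit tunnel, together with the paralog Rpl22l1 (0.078 ± 0.083) were the other members among the 6 largest positive values, with adjusted p from 0.625 to 0.807 in limma. On the negative side, Rps12l1 (-0.31 ± 0.32), Rpl24 (-0.20 ± 0.25), Rpl36al (-0.090 ± 0.058), Rpl3l (-0.061 ± 0.46) and Rpl41 (-0.060 ± 0.062), the smallest ribosomal protein, had adjusted p from 0.662 to 0.979 in limma. The groups overlapped for each of these 10 genes except Rps3a2.

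By role, the members gave the same picture. Of the 19 genes mutated in Diamond-Blackfan anemia, 0 were called in limma, against 0.258% of all genes, and 1 (Rps26) had an unadjusted p under 0.05, against 9.73%. DESeq2 called 0 of the 19 with the fold minimum and 1, Rps26, without it. The median log2 fold change of the 19 was 0.025. Rps19, the gene most often mutated in that disease, stood at 26272 to 29350 normalized counts in wild-type and at 25580 to 30440 in PROSER1 KO libraries, with a log2 fold change of 0.0015. Rpl5 and Rpl11, which bind Mdm2 when ribosome assembly fails, had values of -0.0067 and 0.012. The 3 P-stalk genes ranged from 0.011 (Rplp1) to 0.035 (Rplp2). The 4 X-linked genes ranged from -0.00061 (Rpl36a) to 0.094 (Rpl39). Of the 6 tested paralogs, 0 were called in limma (0.258% of all genes) and 1, Rps4l, in DESeq2 (0.873% of all genes), and 4 had positive values. Fau (0.032) and Rack1 (0.049) were not called in limma.

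The genes that build and control ribosomes were also examined. The lists outside the membership, cell type markers left out, held 213 tested genes. Of these, limma, edgeR and DESeq2 each called 0, against 0.258%, 0.253% and 0.873% of all genes, and 8 had an unadjusted p under 0.05 in limma, against 9.73% of all genes. Among 67 ribosome biogenesis factors, 44 had negative and 23 positive values with a median of -0.025, and the lowest was Rrp9 (-0.19), a component of the U3 particle. The 14 tested genes of RNA polymerase I, which makes ribosomal RNA, had a median of 0.027, and 16 genes of mTORC1 and LARP1 control had a median of -0.043. The 20 TOP mRNAs other than ribosomal proteins had a median of 0.037, with 18 of 20 above 0. Over all genes tested, 8219 of 16251 were above 0 and 8032 below. The TOP genes moved together across libraries, as described above, so the 18 are not independent observations. The 15 tested genes of p53 and its targets had a median of -0.014 and a range from -0.63 (Pmaip1) to 0.51 (Eda2r). The 78 tested mitochondrial ribosomal protein genes, whose products belong to a separate ribosome, had a median of -0.0073 with 2 of them at an unadjusted p under 0.05, against 9.73% of all genes.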

How the data were processed

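The authors' pipeline, as far as given, ran Trimmomatic for adapters and low-quality bases, STAR for alignment on mm10 (GRCm38.p6), featureCounts with read pairs as the unit, and DESeq2, whose size factors scaled every library. The methods name GENCODE release M25 while the deposited ID header names M10, so the annotation is uncertain. The deposited values are a normalized signal, with no gene removed for low counts and 0 columns left unused. Whole read pairs were recovered for 100% of values within 0.01 read pairs, and rows without a gene symbol held at most 0.135% of them. Handling of multi-mapped reads was not given in the sources used here.

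The groups, taken from the labels, were compared with limma 3.58.1 (R 4.3.3, eBayes with trend) on log2(normalized count + 1), over the 16251 genes whose mean reached 10, with Benjamini-Hochberg adjustment over all of them. On this scale fold changes of low genes are understated. edgeR 4.0.16 (quasi-likelihood) called 42 and DESeq2 1.42.0 called 165 genes on the recovered read pairs, against 42 by limma. Exact permutation tests (SciPy 1.17.1, two-sided) covered single genes. The fits were tested on simulated data. Windows of 50 bases came from GENCODE M21 principal transcripts. Where a count was 0, a floor of 3 read pairs was used, which covers counting error only.

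Named genes were the 6 largest rises and falls, the 3 highest and lowest per kb, the 3 lowest p-values and fixed lists, with Proser1, Fau, Rack1 and Rps26-ps1; other genes named were chosen after their values were seen. Members and lists were chosen with earlier results of these data known. Alternatives covered pseudocount, filter, variance model, scaling, tool, replicate block and each library left out. Certain rows are not reported here.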

Additional observations from a re-analysis of the deposited data

How the results depend on the processing

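The count of 0 called ribosomal protein genes was the same in limma under every pseudocount, filter, variance model, scaling and left-out library, in edgeR, and with no fold minimum; it was 1 in DESeq2 (Rps4l) and 2 at an unadjusted p under 0.05 (Rps26 and Rps4l). The lists of other translation, ribosome and p53 genes had 0 calls in edgeR, in DESeq2, with the replicate block and with each library left out. The other alternatives were not run for them. In the mast cell and basophil markers DESeq2 called 1 gene, Mcpt8. Rps26 stayed negative in every alternative, from -0.26 to -0.13 (the latter for the sum with Rps26-ps1, added after the data were seen), and Rps4l stayed positive, from 0.53 to 0.81. Their adjusted p-values ran from 0.0176 to 0.520 and from 0.0226 to 0.479. Rps26 fell by 0.16 on the log2 scale without PROSER1 KO replicate 3, its smallest value with 1 library left out. Proser1 stayed positive, from 0.17 to 0.21.

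The median log2 fold change of the members had no stable sign: with 1 library left out it ran from -0.021 (without PROSER1 KO replicate 2) to 0.073 (without PROSER1 KO replicate 3), and otherwise from -0.00037 to 0.037. The difference in share ran from -0.080 to 0.458 percentage points with the same libraries left out. Signs also changed for Rpl22l1 (-0.016 to 0.14), Rpl3l (-0.47 to 0.17), Rplp1 (-0.030 to 0.064, and -0.0024 scaled to the ribosomal protein genes), Rps12 (-0.054 to 0.045, with 0.0059 under quantile normalization and 0.0098 scaled to the total of other genes) and Rps4x (-0.0070 to 0.071). No other value of the 15 named members changed sign.

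Same-numbered libraries did not deviate together (correlations of 0.023, 0.058 and -0.11), so the numbers were not taken to pair samples. With the replicate number as a block, which drops wild-type replicate 4, 0 members were called, the median was -0.00037, Rps26 was -0.24, Rps4l 0.53 and Proser1 0.19, and Rpl3l (0.064) and Rplp1 (-0.011) changed sign. The low counts of Rpl3l, Rps12l1 and Rpl24 limit their precision.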
